A study of Mus musculus with 15 samples.

Results

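The part of the response to T cell receptor engagement that was left when protein kinase C (PKC) was inhibited was read from 6 of the 15 arrays of the study: the arrays of anti-TCR with PKC inhibitor and the arrays of mock treatment, 1 of each on chip types A, B and C. A log2 ratio of PKC inhibitor to mock was taken for each gene after raising values to a floor, the median of all values of that chip type (51.1, 69.5 and 55 in the deposited intensity units). A gene counted as measured when its brighter value reached 4 times that floor, which held for 5667 of 15964 genes and for 8573 of 36701 probe sets. A gene is called higher or lower when the values lay at least 2-fold apart, and "at least" before a fold marks a dimmer value at or below the floor.

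The cells were A.E7, a single mouse CD4 T helper clone, so the values describe 1 clone. Mock cells received no receptor stimulus, "anti-TCR alone" is the treatment that the titles call anergic, and the PKC inhibitor arm received anti-TCR with an inhibitor that the labels do not name further. The other stimulated arms received anti-TCR with cyclosporin A, which blocks calcineurin, or anti-TCR with a 3-drug mix of rapamycin, PD98059 and SB203580, which block mTOR, MEK and p38. No arm received the PKC inhibitor without anti-TCR. RNA of 2, 4 and 6 h was pooled for each arm, and 1 array was hybridised per arm and chip type. There is therefore no SD over cultures and no test, and with so few arrays the precision is limited.

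Engagement of the receptor makes the second messenger diacylglycerol, which recruits PKC enzymes, foremost PKC theta in T cells, and the Ras activator RasGRP1. PKC theta acts through the CARMA1, BCL10 and MALT1 complex on NF-kB, and diacylglycerol signalling also feeds the ERK pathway and AP-1. Calcium, calcineurin and NFAT form the parallel branch, and a T cell that receives a receptor signal without costimulation can become anergic.

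The deposited values had been brought to a common level, with 2% trimmed means within 0.242% of each other on each chip type, and between 17.6% and 22.8% of the probe sets of these 6 arrays reached 4 times the floor. The bright end of the PKC inhibitor array was lower than that of mock on chip type A, where the 99th percentile was 1864 against 2717 (ratio 0.686), and less so on B (0.922) and C (0.991). Markers of CD4 T cells were present: Cd4 read 610.2 with mock and 597.5 with PKC inhibitor, Cd3e 704.3 and 618.6, and 10 of 11 marker genes were measured. Their summed intensity was 9461 with PKC inhibitor against 14770 with mock and 9860 to 13021 in the other arms. In bulk RNA, fewer cells of a type and less RNA per cell cannot be told apart. Cd8a and Cd8b1 lay below 5 units in both arms, while the NK lectin receptors Klrd1 (4063 with mock), Klrc1, Klrk1 and Klre1 were bright. Of 9 B cell markers and 9 erythroid or neutrophil markers 0 were measured, and of 13 macrophage and dendritic cell markers 2, Ctss and Cd14 (summed intensity of the 13 markers 2095 with mock and 1225 with PKC inhibitor, with Lyz2 and Adgre1 below the floor).

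Compared with mock, the PKC inhibitor arm held 391 of 5667 measured genes (6.9%) at a higher level and 201 (3.55%) at a lower level. At 4-fold the counts were 64 (1.13%) and 21 (0.371%), and over the 8573 measured probe sets 646 (7.54%) were at least 2-fold higher and 345 (4.02%) lower. The median log2 ratio of all measured genes was -0.05, with quartiles of -0.36 and 0.33. With anti-TCR alone, measured against the same mock arrays, 659 of 5803 genes (11.4%) were higher and 808 (13.9%) lower, so the inhibited arm had fewer genes past the limit on either side, and its higher genes outnumbered its lower ones. The split differed by chip type: on A 8.63% were higher and 3.2% lower, on B 5.67% and 3.72%, and on C 5.8% and 3.85%. Some probe sets carry a suffix (r, i, f, s or g) that marks a shared or compromised design. Of genes read on these, 5.01% were higher and 4.85% lower, and of genes read on other probe sets 7.45% and 3.17%.

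**Figure D1:**
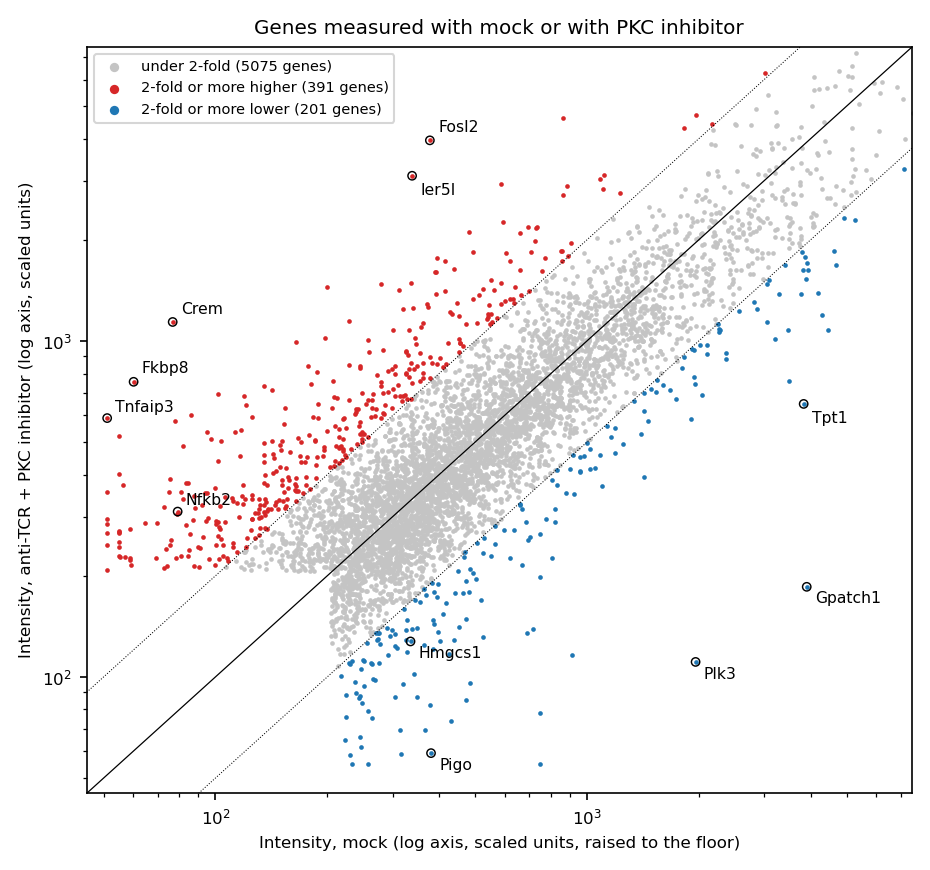
Intensity of each measured gene with mock (x axis) and with anti-TCR and PKC inhibitor (y axis), both on log axes in the deposited scaled units with values raised to the floor; the solid line marks equal values and the dotted lines 2-fold. The 391 higher genes (red) and 201 lower genes (blue) flank the diagonal, with Crem, Fosl2, Ier5l, Fkbp8 and Tnfaip3 far above it and Gpatch1, Plk3 and Tpt1 far below.

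The 15 highest genes were taken among those whose further bright probe sets, if any, had the same sign. Their highest ratio belonged to Crem, which encodes a cAMP-responsive modulator that binds cAMP response elements and can repress cytokine genes. Crem read 76.7 with mock, 251.7 with anti-TCR alone, 722.5 with cyclosporin A, 1139 with PKC inhibitor and 314.7 with the 3-drug mix, a 14.9-fold difference between PKC inhibitor and mock. The PKC inhibitor array thus held the highest of the 5 values. A second probe set gave 52.8 with mock and 565.9 with PKC inhibitor (log2 ratio 3.42). Both carry the suffix s, and the 3 other Crem probe sets lay below the floor with mock and with PKC inhibitor.

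Fosl2, an AP-1 subunit of the Fos family, followed the receptor in every stimulated arm. It read 377.7 with mock, 7010 with anti-TCR alone, 5720 with cyclosporin A, 3956 with PKC inhibitor and 3721 with the 3-drug mix. Its PKC inhibitor value was 10.5-fold above mock, and another bright probe set gave 1.77 on the log2 scale against 3.39. Fkbp8, a membrane chaperone of mitochondria, was 12.6-fold higher (60.2 with mock, 494 with anti-TCR alone, 755.8 with PKC inhibitor). Tnfaip3, which encodes the NF-kB inhibitor A20, lay below the floor with mock (4.9) and read 198.9 with anti-TCR alone, 147.4 with cyclosporin A, 589.4 with PKC inhibitor and 646.9 with the 3-drug mix. Its PKC inhibitor value was at least 11.5-fold above mock and 2.96-fold above anti-TCR alone.

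A different pattern was seen for Ier5l, of the immediate early response family. It read 338.3 with mock, 264.5 with anti-TCR alone, 5812 with cyclosporin A, 3103 with PKC inhibitor and 411.9 with the 3-drug mix. The arms with a calcineurin or a PKC block were high and the other 3 low, and a probe set on another chip type gave the same order (623 with mock, 484.9 with anti-TCR alone, 5103 with cyclosporin A, 1693 with PKC inhibitor). Rhoq, which encodes the small GTPase TC10, was at least 9.45-fold above mock on chip type C (46 and 520) and read 57.5 and 410.9 on chip type A, also with high cyclosporin A values (508.2 and 205.2). Scrt1, a zinc finger repressor, was 6.05-fold above mock with PKC inhibitor (164.4 with mock and with anti-TCR alone, 994.2 with PKC inhibitor, 746.2 with cyclosporin A). Tcea2, a transcription elongation factor, (f-suffixed) was 6.85-fold higher. Its other probe sets stayed under 4 times the floor. The remaining genes of the 15 highest, Baiap2, Btbd19, Rasal3, Capn1, Adprhl2, Tpgs1 and Mlf2, lay 5.78-fold to 7.47-fold above mock, and each was at least 3-fold above mock with anti-TCR alone as well.

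The lowest ratios rested more often on suffixed probe sets. The 15 lowest genes, too, were taken among those whose further bright probe sets, if any, had the same sign. Of these 15, 9 were read on a suffixed probe set, against 1278 of all 5667 measured genes. This choice left out Prpsap1, which gave -3.76 on chip type C and 0.84 on chip type A. Gpatch1 (r-suffixed) read 3905 with mock and 185.4 with PKC inhibitor (21.1-fold lower), and Plk3 (r-suffixed), a stress-responsive kinase of the Polo family, 1961 and 110.8 (17.7-fold lower). Plk3 was as low in every other stimulated arm, between 86.9 and 143.4. Among genes on unsuffixed probe sets, Pigo, an enzyme of GPI anchor synthesis, was 6.41-fold lower (380.4 and 59.3). A Pigo probe set on chip type B, under 4 times the floor, read 211.7 with mock and 221.4 with PKC inhibitor. Tpt1, which encodes the abundant growth-linked protein TCTP, was 5.90-fold lower. It read 3832 with mock, 3010 with anti-TCR alone, 1850 with cyclosporin A, 649.5 with PKC inhibitor and 2203 with the 3-drug mix. Dnajc16, a J-domain protein, was 5.54-fold lower, the chloride cotransporter Slc12a3 at least 5.28-fold, Emp1, an epithelial membrane protein, 5.17-fold, and the zinc finger gene Zfp707 5.12-fold. A Zfp707 probe set on chip type B, also under 4 times the floor, read 144.4 with mock and 176.6 with PKC inhibitor.

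With no replicate arrays, readings of 1 gene on different probe sets, above all on different chip types, serve as the check of the ratios at large. The choice of the 15 highest and 15 lowest genes already required the same sign, so their further readings do not check their direction. Over 800 pairs of probe sets from 734 genes, the technical SD of the log2 ratio of PKC inhibitor to mock was 0.62, so that a difference at the 2-fold limit is less than 2 such SDs. The readings correlated weakly (Pearson and Spearman correlations of 0.26 each, across probe set pairs that share RNA pools and are not replicates). For anti-TCR alone against mock, r was 0.52 over 847 pairs with a technical SD of 0.76. Of 67 genes called higher with PKC inhibitor that had a bright probe set on another chip type, 47 read above 0 there and 16 (23.9%) were again at least 2-fold higher, where 11% of all 885 genes with such a reading were. Those 16 were Dgat1, Ece1, Gch1, Ier5l, Lrrc8d, Phb2, Rab6a, Rhoq, Rora, Slc38a2, Smox, Spag9, Srsf1, Tmem30a, Tob1 and Tradd. Of 20 genes called lower, 11 read below 0 on the other chip type and 3 were at least 2-fold lower again (Creb1, Ly6e and Nfia), against 3.28% of all 885. Single genes near the limit were therefore often not repeated on another chip type. The brightness minimum there was read over mock, anti-TCR alone and PKC inhibitor, and 1 array was enough to reach it. Among the repeated genes, Lrrc8d, Rhoq, Rora, Slc38a2 and Smox reached it only with PKC inhibitor, and Creb1, Ly6e and Nfia only with mock. Such repeats are favoured by the minimum itself and do not check the ratios.

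**Figure D2:**
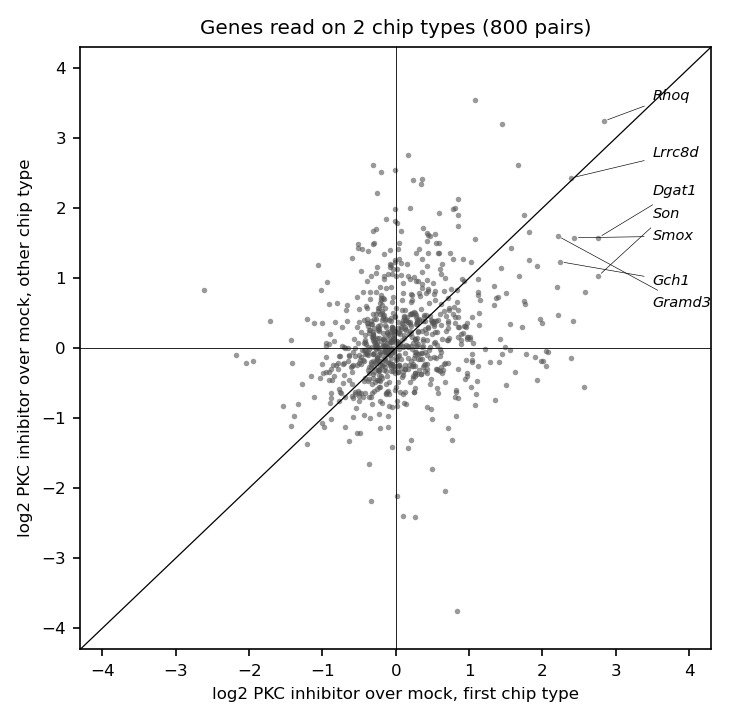
Log2 ratio of PKC inhibitor to mock for genes with bright probe sets on 2 chip types, 1 point for each of 800 pairs, with the line of equal readings. Points spread widely around the line (technical SD 0.62), and genes past 4-fold on the first and 2-fold on the other chip type are named.

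To see what was left of the response, the 659 genes induced by anti-TCR alone were read in the PKC inhibitor arm. A gene is called lost when it lay less than 2-fold above mock with PKC inhibitor. It is called reduced when it lay at least 2-fold above mock and at least 2-fold below anti-TCR alone. It is called kept when it lay at least 2-fold above mock and within 2-fold of anti-TCR alone. Lost genes can therefore lie within 2-fold of anti-TCR alone as well, such as Dnttip1 (log2 ratio to mock 0.83, and 1.12 with anti-TCR alone). Only genes induced at least 4-fold can be reduced. Of the 659, 458 (69.5%) were lost, 41 (6.22%) reduced and 147 (22.3%) kept, 3 exceeded the anti-TCR level at least 2-fold and 10 lay at least 2-fold below mock. Of the 228 genes induced at least 4-fold (3.93% of the 5803), 144 (63.2%) were lost, 41 reduced and 41 kept. Both ratios share the mock arrays, so an error of the mock value moves them together. Readings on another chip type do not check the loss, since a further probe set could reach the brightness minimum through the anti-TCR array alone.

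The lost genes were led by transcription factors, chemokines and cytokines of the activated T cell. Egr2, a zinc finger factor linked to anergy, read 43.8 with mock, 3325 with anti-TCR alone, 582.2 with cyclosporin A, 41.7 with PKC inhibitor and 2116 with the 3-drug mix. Egr3 read 121.3 with mock, 4354 with anti-TCR alone and 72 with PKC inhibitor, against 2359 with cyclosporin A and 3470 with the 3-drug mix. Nr4a1, an orphan nuclear receptor, read 64 with mock, 3002 with anti-TCR alone and 77.3 with PKC inhibitor, with 2244 and 2205 in the other inhibitor arms. A further bright Nr4a1 probe set, on chip type B, was induced less than 2-fold (327.1 with mock, 379.8 with anti-TCR alone, 332.9 with PKC inhibitor). For Egr2, Egr3 and Nr4a1, on the probe sets given first, the PKC inhibitor array alone was at the mock level or below it. The histone demethylase Kdm6b (7.3 with mock, 4085 with anti-TCR alone, 4.4 with PKC inhibitor) and Rhbdf2, a partner of the TNF-shedding protease (43.8, 3736 and 69.5), behaved alike. With cyclosporin A and with the 3-drug mix Kdm6b read 2701 and 1458 and Rhbdf2 1824 and 1073. Srxn1, which repairs oxidised peroxiredoxins, read 1602 with anti-TCR alone and 92.2 with PKC inhibitor. It read 1355 with cyclosporin A, and with the 3-drug mix it was low as well (175.2).

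For other lost genes the cyclosporin A array was low too. The chemokine Xcl1 read 9.5 with mock, 2472 with anti-TCR alone, 42.8 with cyclosporin A and 36.3 with PKC inhibitor, and the chemokine Ccl1 12.4, 1983, 21.9 and 30. Spry1, a feedback inhibitor of receptor signalling, read 41.7, 3428, 81.3 and 103.2 in the same order. Csf2, which encodes GM-CSF, read 21.6, 1672, 151.1 and 9.7.

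The reduced genes lay between mock and anti-TCR alone, and in 15 of the 41 the PKC inhibitor value itself was under 4 times the floor. Nr4a3 read 74.4 with mock, 4965 with anti-TCR alone, 1160 with cyclosporin A, 149.2 with PKC inhibitor and 2676 with the 3-drug mix, which put it 2.01-fold above mock and 33.3-fold below anti-TCR alone. A further Nr4a3 probe set gave a log2 ratio of 0.42 to mock. Nr4a2 was at least 2.48-fold above mock (126.8 against 2536 with anti-TCR alone), and a g-suffixed probe set gave 0.97. Both PKC inhibitor values are under 4 times the floor, and these 2 genes are lost by the further probe sets. Gch1, the first enzyme of tetrahydrobiopterin synthesis, was 4.72-fold above mock with PKC inhibitor (354.8) and 30.5-fold with anti-TCR alone (2292), and a probe set on another chip type gave log2 ratios of 1.23 and 2.55. Tnfsf11, which encodes the cytokine RANKL, was 3.75-fold and 26-fold above mock, the Egr corepressor Nab2 2.83-fold and 24.5-fold, and Phlda1 5.24-fold and 26.3-fold. Traf5, Map2k3os, Rrad and Baiap2 completed the 10 largest inductions of this class. Baiap2 stood 7.47-fold above mock on chip type C, but 180.6 with mock and 147.9 with PKC inhibitor on chip type A.

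Among the kept genes, Fosl2 had the largest induction by anti-TCR alone (18.6-fold). Its further bright probe set, with 181.3 with mock, 2391 with anti-TCR alone and 619.1 with PKC inhibitor, would place it among the reduced genes. Btbd19 read 50.2 with mock, 789.9 with anti-TCR alone and 403 with PKC inhibitor, at least 7.33-fold above mock. Oxsr1, a kinase that controls ion cotransport, was at least 4.9-fold above mock with PKC inhibitor, and Slc12a4, a potassium chloride cotransporter (f-suffixed), at least 4.58-fold. Ube2s, which extends ubiquitin chains for the anaphase-promoting complex, was 4.34-fold higher, the kinase Cdk17 3.91-fold, the signal peptide peptidase H13 (r-suffixed) 3.89-fold and the dynein light chain Dynll2 3.61-fold. A further probe set of Dynll2 gave -0.40 on the log2 scale.

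The kept class was repeated weakly on other chip types. Of the 147 kept genes, 33 had a bright probe set on another chip type. There the median log2 ratio was 0.42 with PKC inhibitor and 0.31 with anti-TCR alone, so that neither arm repeated the 2-fold difference at the median, and 4 genes (12.1%) were at least 2-fold above mock with PKC inhibitor, near the 11% of all such genes. The 4 were Phb2, Spag9, Srsf1 and Tradd.

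The 3 genes that exceeded anti-TCR alone were Crem, Rasal3 and Rab24, and all 3 were high with cyclosporin A as well. Rasal3, a Ras GTPase-activating protein of lymphocytes, read 199.4 with mock, 686.6 with anti-TCR alone, 1439 with cyclosporin A, 1445 with PKC inhibitor and 586.3 with the 3-drug mix. Rab24, a small GTPase, read 335.2, 712.1, 1250, 1489 and 936.4 in the same order. The 10 genes that anti-TCR alone raised and that lay below mock with PKC inhibitor were Bex1, Cdc45, Gcg, Il18rap, Ipcef1, Kif15, Nop58, Serpinb3a, Smarca2 and Vsir, of which 6 were read on suffixed probe sets. Vsir, which encodes the inhibitory receptor VISTA, read 1800 with mock, 3963 with anti-TCR alone, 861.2 with cyclosporin A, 828.8 with PKC inhibitor and 2076 with the 3-drug mix. Il18rap, a chain of the IL-18 receptor, read 277.6 with mock, 595 with anti-TCR alone and 125.5 with PKC inhibitor. Further probe sets of Vsir (-0.83), Ipcef1 (-0.70) and Kif15 (0 and -0.12) were less than 2-fold below mock.

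**Figure D3:**
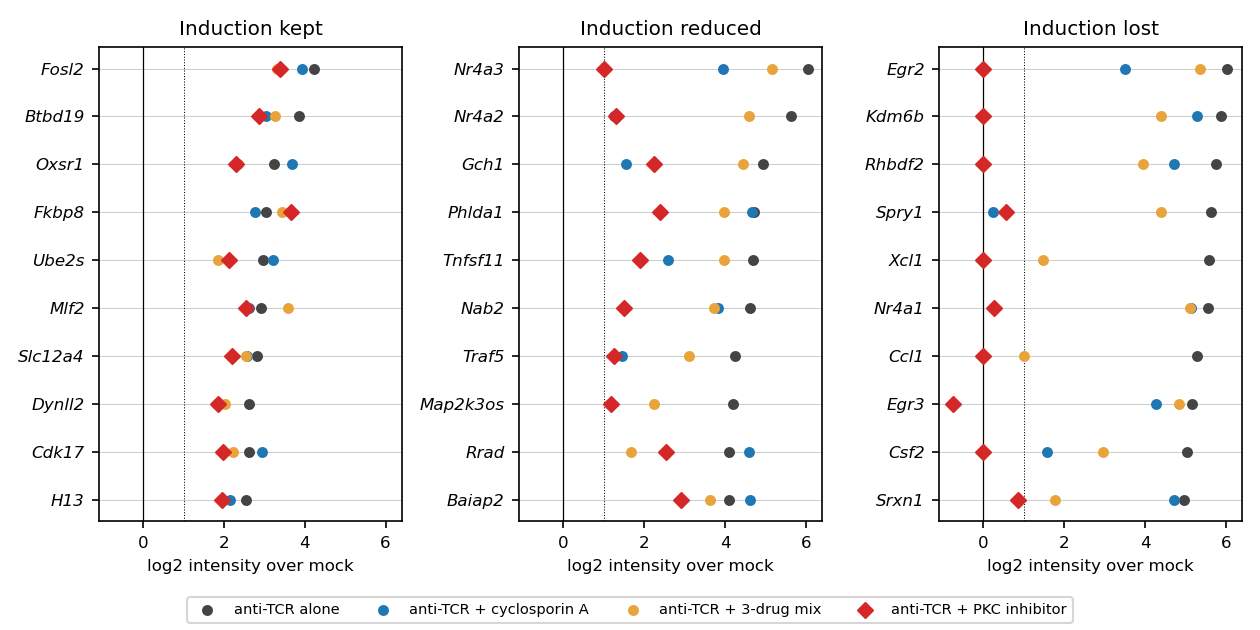
Log2 intensity over mock in the 4 stimulated arms for the 10 genes with the largest induction by anti-TCR alone in each class, with the dotted line at 2-fold; where points coincide the PKC inhibitor diamond lies on top. The diamonds sit beside the other arms for kept genes such as Fosl2, between mock and anti-TCR alone for reduced genes such as Gch1, and near 0 for lost genes such as Egr2 and Nr4a1.

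Genes that anti-TCR alone lowered were back near the mock level more often than not. Of 808 lowered genes, 715 (88.5%) were less than 2-fold below mock with PKC inhibitor, 71 (8.79%) kept the lower level, 9 were reduced and 12 lay at least 2-fold above mock. Mxd4 (s-suffixed), a MAX partner that opposes Myc, read 3068 with mock, 267.7 with anti-TCR alone, 852.7 with cyclosporin A, 5412 with PKC inhibitor and 655.6 with the 3-drug mix. The sialyltransferase St8sia4 read 1491, 117.6, 402.6, 1016 and 312.8 in the same order, and Synrg 1048, 41, 704.8, 699.4 and 668.8, with a further Synrg probe set at 1.11 over mock on the log2 scale. For Mxd4 and St8sia4 the PKC inhibitor arm was the stimulated arm nearest to mock. In 35 pairs of probe sets, 30 genes lowered at least 4-fold on 1 chip type were read on another (2.64% of all measured genes were lowered that far). The median there was -1.33 with anti-TCR alone and 0.01 with PKC inhibitor, and 22 pairs against 2 were at least 2-fold below mock. A probe set there could reach the brightness minimum through the mock array alone, so these readings do not check the classes.

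A lower level was kept by Ccr2, a chemokine receptor, which read 668.2 with mock, 130.8 with anti-TCR alone, 630.1 with cyclosporin A, 215.9 with PKC inhibitor and 86.2 with the 3-drug mix. Its PKC inhibitor value was 3.09-fold below mock. Mgst2, a microsomal glutathione transferase, was 3.49-fold below mock and Zfp882 2.71-fold. The kept genes on the lower side also included the signalling protein gene Vav1 (473.7 with mock, 218.6 with anti-TCR alone, 148.5 with PKC inhibitor) and the glucose-regulated Txnip (s-suffixed; 2267, 744.4 and 1083). Vav1 probe sets on chip type A, under 4 times the floor, read 128.8 with mock and 147.8 with PKC inhibitor, and 135 and 118.7 (s-suffixed). Of the 8 kept genes with a reading on another chip type, 7 read below 0 there and 3 at least 2-fold lower. These 3 were Creb1, Ly6e and Nfia, which reached the brightness minimum there only with mock, so the reading does not check the class. The 12 genes on the other side of mock included Snx20, a sorting nexin, which read 300.7 with mock, 68.3 with anti-TCR alone and 1074 with PKC inhibitor. Ifngr1, the ligand-binding chain of the interferon gamma receptor, read 551.3, 130.1 and 1203, and Mknk2, a kinase of the translation factor eIF4E, 853.3, 375.3 and 1856.

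The genes of the inhibited pathway itself lay near the mock level. Of 15 measured genes of PKC and diacylglycerol signalling, 0 were higher and 1 lower (median log2 ratio 0.08, against -0.05 for all measured genes). Of all measured genes, 6.9% were higher and 3.55% lower. Prkcq, which encodes PKC theta, read 276.5 with mock, 190.4 with anti-TCR alone, 113 with cyclosporin A, 177.3 with PKC inhibitor and 197.5 with the 3-drug mix (log2 ratio -0.64 to mock). Prkd3, a diacylglycerol-activated protein kinase D, was the 1 lower gene (383.2 with mock, 122.1 with anti-TCR alone, 189.8 with PKC inhibitor, 2.02-fold below mock). Prkch, Prkci and Malt1, which anti-TCR alone raised 3.19-fold, 2.28-fold and 2.25-fold, were at 1411, 473.9 and 1271 with PKC inhibitor against 1148, 387.7 and 1293 with mock. Dgka, the kinase that removes diacylglycerol, read 301.9 with mock, 124.9 with anti-TCR alone, 74 with cyclosporin A and 352.4 with PKC inhibitor. The exchange factors Rasgrp1 (-0.46) and Rasgrp2 (s-suffixed, -0.14), the adaptor Bcl10 (0.17) and the phospholipase Plcg1 (0.65) did not pass the limit. Nor did the kinase genes Prkcb (0.08), Prkce (-0.42) and Prkd2 (0.12) and the diacylglycerol kinase Dgkz (-0.11). Prkcd gave 0.35 on its brightest probe set, 0.52 on an s-suffixed one and 1.01, past the limit, on an unsuffixed one of chip type A (204.1 with mock and 411.9 with PKC inhibitor).

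NF-kB genes were higher with PKC inhibitor in 6 of 15 cases and lower in 0 (median 0.26), where 6.9% of all measured genes were higher. Of the 8 list genes that anti-TCR alone induced, 4 were kept, 1 reduced and 3 lost. Among all 659 induced genes the shares were 22.3%, 6.22% and 69.5%. The subunit gene Nfkb2 read 79.1 with mock, 436.5 with anti-TCR alone, 188.5 with cyclosporin A, 310.5 with PKC inhibitor and 657.3 with the 3-drug mix (3.93-fold above mock). The subunit gene Relb read 75.7, 425.1, 292.6, 255.5 and 525.2 in the same order (3.38-fold), and the inhibitor gene Nfkbib 134.9, 508.1, 224.8, 435.3 and 519.5 (3.23-fold). In these 3 genes the PKC inhibitor value lay between mock and anti-TCR alone. Tnip2, a partner of A20, was 2.16-fold above mock, and Map3k14, the kinase NIK of the alternative NF-kB pathway, 2.19-fold (588.8 with mock, 466.3 with anti-TCR alone, 1287 with PKC inhibitor). None of these 6 genes had a second bright probe set. The lost members were the atypical inhibitors Nfkbid (574.8 with mock, 6299 with anti-TCR alone, 679.9 with PKC inhibitor) and Nfkbiz (35, 377.5 and 36.5) and the kinase gene Map3k8 (5.7, 824.4 and 7.9). Bcl3, a coactivator of the p50 and p52 subunits, was reduced, with a PKC inhibitor value under 4 times the floor (52, 761.5 and 160). The subunit Rela (0.26), the kinase Ikbkb (0.39), Birc2 (0.23) and the A20 partner Tnip1 (-0.12) were near the mock level. The adaptors Traf1 (-0.77) and Traf2 (i-suffixed, -0.46) and the ubiquitin ligase Birc3 (-0.68) were below it without passing the limit. The inhibitor gene Nfkbia gave 0.15 on its brightest, f-suffixed probe set, -0.16 on an unsuffixed one and 1.01, past the limit, on another unsuffixed one (510.2 with mock, 1731 with anti-TCR alone, 1027 with PKC inhibitor).

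Promoter windows of the NF-kB genes are shown because this list had members at a shared higher level. The windows come from RefSeq on GRCm38.p6, run from 250 bases before to 50 bases after a transcription start, and were matched by symbol. Of the 6 genes, 5 matched, with 8 windows. The NF-kB consensus was found on either strand in 4 of the 8, which were the 3 windows of Nfkb2 and 1 of 2 of Tnfaip3. It stood in 4.51% of all 32851 windows and in 5.46% of those of measured genes. Of the Nfkb2 windows, 2 overlap and share 1 match, so windows are not independent. The genes were also drawn from a list of NF-kB genes, so no conclusion is drawn from the difference in shares. Map3k14, Nfkbib and Tnip2 held no match. Capitals mark matches to the NF-kB consensus and, in Tnfaip3, also 1 to the AP-1 motif TGACTCA. The Nfkb2 window has 3 NF-kB matches, of which a pair overlaps, the Tnfaip3 window has 2, and the window of Fosl2, the kept gene with the largest induction, has 2 that overlap. A match is a description of the letters.
Nfkb2, chr19:46304487-46304786, plus strand: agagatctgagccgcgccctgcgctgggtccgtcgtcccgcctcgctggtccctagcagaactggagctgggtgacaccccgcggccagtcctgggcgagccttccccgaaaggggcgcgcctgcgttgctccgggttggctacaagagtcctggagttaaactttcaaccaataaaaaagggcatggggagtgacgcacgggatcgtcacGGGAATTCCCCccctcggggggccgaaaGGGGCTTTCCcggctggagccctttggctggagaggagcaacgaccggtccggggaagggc
Tnfaip3, chr10:19015361-19015660, minus strand: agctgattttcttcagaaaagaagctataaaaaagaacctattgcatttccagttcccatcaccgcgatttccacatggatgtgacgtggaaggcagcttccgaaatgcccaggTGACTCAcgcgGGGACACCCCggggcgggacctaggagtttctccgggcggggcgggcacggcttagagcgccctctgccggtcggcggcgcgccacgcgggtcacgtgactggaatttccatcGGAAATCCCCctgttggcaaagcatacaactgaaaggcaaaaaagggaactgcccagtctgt
Fosl2, chr5:32136222-32136521, plus strand: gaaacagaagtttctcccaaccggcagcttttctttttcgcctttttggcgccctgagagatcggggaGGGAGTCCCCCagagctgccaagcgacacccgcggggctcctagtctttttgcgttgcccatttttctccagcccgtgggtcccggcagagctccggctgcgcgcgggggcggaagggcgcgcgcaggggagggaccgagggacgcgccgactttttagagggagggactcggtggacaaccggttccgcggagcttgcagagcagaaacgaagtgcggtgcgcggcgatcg

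Over the classes, the cAMP response element TGACGTCA, searched on both strands, stood in 11 of 149 windows of kept genes (7.38%), 16 of 478 of lost genes (3.35%) and 0 of 36 of reduced genes. It stood in 3.08% of the windows of all measured genes. The 11 windows belonged to 10 genes, among them Mlf2, Oxsr1, Golph3, Lsm2 and Rab5a. AP-1 matches stood in 3.36% of kept and 2.72% of lost windows, NFAT matches (TGGAAA) in 17.4% and 20.9%, and NF-kB matches in 7.38% and 6.49%. These shares were not tested.

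Immediate early transcription factors were split. Of 17 measured against mock, 6 were higher and 1 lower with PKC inhibitor (median 0.53), against 6.9% and 3.55% of all measured genes. Over the same 17 genes the median with anti-TCR alone was 0.79. Of the list genes that anti-TCR alone induced, which number 17 as well but are not the same set, 1 was kept (Fosl2), 1 exceeded (Crem), 5 were reduced and 10 lost. Among all 659 induced genes 22.3% were kept, 0.455% exceeded, 6.22% reduced and 69.5% lost. Junb (i-suffixed), an AP-1 subunit, read 141.9 with mock, 1447 with anti-TCR alone, 1384 with cyclosporin A, 715.5 with PKC inhibitor and 899.3 with the 3-drug mix, and Ier2 426.7, 2990, 2763, 1218 and 1701. Atf3 (f-suffixed), a stress-induced repressor, was 2.90-fold above mock. Fos read 17.1 with mock, 369.6 with anti-TCR alone and 23.5 with PKC inhibitor, and Irf4, which encodes a factor of T cell differentiation, 268.7, 2076 and 206.1. Klf10, a TGF-beta-induced zinc finger factor, was the lower gene (467.9 with mock and 227.8 with PKC inhibitor, with a further probe set at -1.56). The median of the list was 0.28 without suffixed probe sets and 0.07 without a brightness minimum.

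Of 13 cytokine and chemokine genes induced by anti-TCR alone, 11 were lost, 2 reduced and 0 kept, where 69.5% of all induced genes were lost. Ifng, which encodes interferon gamma, read 151.3 with mock, 3261 with anti-TCR alone, 538.2 with cyclosporin A, 84.1 with PKC inhibitor and 1273 with the 3-drug mix. Il13 read 10.5 with mock, 1005 with anti-TCR alone and 7.2 with PKC inhibitor, and Ccl3 50.5, 1363 and 8.4. Tgfb1, which encodes the suppressive cytokine TGF-beta 1, kept part of its induction (177.9, 2257 and 844.5, 4.75-fold above mock). Of the receptors of activated cells 5 of 5 induced genes were lost, among them Tnfrsf4 (OX40; 310.3, 1760 and 469.2) and the inhibitory Lag3 (74.2, 644.1 and 122.3).

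Of 22 measured genes linked to anergy and negative regulation, 5 were higher and 0 lower with PKC inhibitor (median -0.12), against 6.9% and 3.55% of all measured genes. Of the 15 that anti-TCR alone induced, 13 were lost and 2 reduced, where 69.5% of all induced genes were lost. Ctla4, an inhibitory receptor, read 659.6 with mock, 373.3 with anti-TCR alone, 171.3 with cyclosporin A, 1628 with PKC inhibitor and 731.5 with the 3-drug mix, so the PKC inhibitor arm was the highest of the 5. Tob1, an antiproliferative gene of resting T cells, was 2.70-fold above mock, and 1.15 on the log2 scale on another chip type. Socs1, a feedback inhibitor of cytokine receptors, read 117.4 with mock, 1196 with anti-TCR alone and 544.3 with PKC inhibitor. Rgs2, a regulator of G protein signalling, read 706.8, 374.7 and 1835, with 2207 with cyclosporin A. Of 21 measured genes of calcineurin and NFAT signalling, 0 were higher and 0 lower (median -0.20), where anti-TCR alone raised 3 and lowered 9. Over all measured genes 6.9% were higher and 3.55% lower with PKC inhibitor, and 11.4% and 13.9% with anti-TCR alone. Nfatc1 read 342 with mock, 2236 with anti-TCR alone, 222.9 with cyclosporin A and 276.7 with PKC inhibitor.

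Of the induced MAP kinase phosphatase and Sprouty genes 5 of 5 were lost, where 69.5% of all induced genes were, such as Dusp6, the ERK phosphatase (13.1 with mock, 634.4 with anti-TCR alone, 12.1 with PKC inhibitor). Dusp1 was 3.26-fold above mock (73.6 with mock, 95.2 with anti-TCR alone, 254.5 with cyclosporin A, 239.9 with PKC inhibitor). Of 20 measured kinases of the cascades 3 were higher and 0 lower, namely Map2k3 (2.69-fold, with 0.90 on a g-suffixed probe set), Map4k1 (2.25-fold) and Mknk2. For this list and those that follow, the shares over all measured genes were 6.9% higher and 3.55% lower. The amino acid response gave 3 higher and 0 lower of 15: Atf4 itself (2.16-fold), the transporter subunit Slc3a2 (3.14-fold) and Ddit4, an inhibitor of mTOR complex 1. Ddit4 read 415.3 with mock, 300.9 with anti-TCR alone, 1250 with cyclosporin A, 1727 with PKC inhibitor and 345.7 with the 3-drug mix. Of the 10 Atf4 list genes that anti-TCR alone induced, 7 were lost, near the 69.5% of all induced genes. Slc7a5, a leucine transporter, read 219.6 with mock, 1046 with anti-TCR alone and 163.7 with PKC inhibitor. The p53 list had 1 higher gene of 11, Mdm2 (5.33-fold on chip type C, log2 ratio 0.36 on chip type A), and 1 lower, Plk3, and the Nrf2 list 1 of 17, the autophagy receptor Sqstm1 (3.13-fold). Of 15 heat shock and 11 apoptosis genes 0 were past the limit on either side.

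Several lists of abundant genes lay below mock. Of 21 measured cytosolic ribosomal protein genes 5 were lower, against 3.55% of all measured genes, and 0 higher (median -0.74), such as Rpl37a (3.63-fold) and Rps18 (2.68-fold). With quantile normalization, which gives the arrays of a chip type the same distribution, this median was -0.14, and without a brightness minimum it was -0.34. Housekeeping genes had a median of -0.46 (-0.23 with quantile normalization), with 1 of 12 higher (Tubb5, f-suffixed, with 0.71 and 0.79 on further probe sets) and 0 lower. Adhesion and cytoskeleton genes had a median of -0.56 (-0.24), with the integrin gene Itgb7 higher (2.73-fold) and S100a4 and Anxa1 lower of 29. These lists move with the lower bright end of the PKC inhibitor array on chip type A given above, whose part in them was not tested beyond that normalization. Effector genes kept their lower median under it (-0.92, and -0.96 with quantile normalization), with 4 of 10 lower and 1 higher, where 3.55% of all measured genes were lower. Without a brightness minimum the median was -0.37. Gzma (s-suffixed), which encodes granzyme A, read 2045 with mock, 3855 with anti-TCR alone, 1787 with cyclosporin A, 689.7 with PKC inhibitor and 747.6 with the 3-drug mix. Nkg7 (g-suffixed), of cytotoxic granules, read 7121 with mock and 3249 with PKC inhibitor, and its further probe sets lay at -0.93 and -0.92. Cathepsin W (Ctsw) was 2.37-fold lower. The summed intensity of the 7 CD8 T and NK cell markers was lower as well, at 4368 with PKC inhibitor and 7622 with mock, with Cd8a and Ncr1 below the floor, and its part in the effector values was not tested.

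Of 22 measured genes of the receptor complex 0 were higher and 2 lower, Vav1 and Zap70. Beside this list and those that follow stand the shares of all measured genes, 6.9% higher and 3.55% lower. The kinase gene Zap70 was 2.30-fold lower on an s-suffixed probe set (2869 and 1249) but read 364.3 with mock and 1188 with PKC inhibitor on an unsuffixed one, so its direction is not settled. Nucleolar ribosome biogenesis genes had 0 higher and 2 lower of 20, Nop58 and Nop16, both f-suffixed. Of the 7 that anti-TCR alone induced, 6 were lost, where 69.5% of all induced genes were lost. Sterol synthesis had 1 lower gene of 15, Hmgcs1. Glycolysis had 1 higher gene of 13, Pgam1 (2.6-fold), and 1 lower, the oxygen-regulated factor Hif1a (f-suffixed; 4692 and 1688, with a further probe set at -1.45). DNA replication had 2 higher of 13 (Cdt1 and Ccnd2) and 1 lower (Cdc45), quiescence 1 and 1 of 17 (Tob1 and Txnip), interferon response 1 higher (Tapbp) and 2 lower (Gbp3 and H2-K1) of 16, and mitosis 0 of 3. A further bright probe set of Cdt1 (f-suffixed, 0.74) did not pass the limit. Of the further bright probe sets of Tapbp, an f-suffixed one gave 0.11 and an unsuffixed one 1.46, past the limit. Those of H2-K1 gave 0.30 (f-suffixed) and -1.97 (unsuffixed), the latter past the limit.

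**Figure D4:**
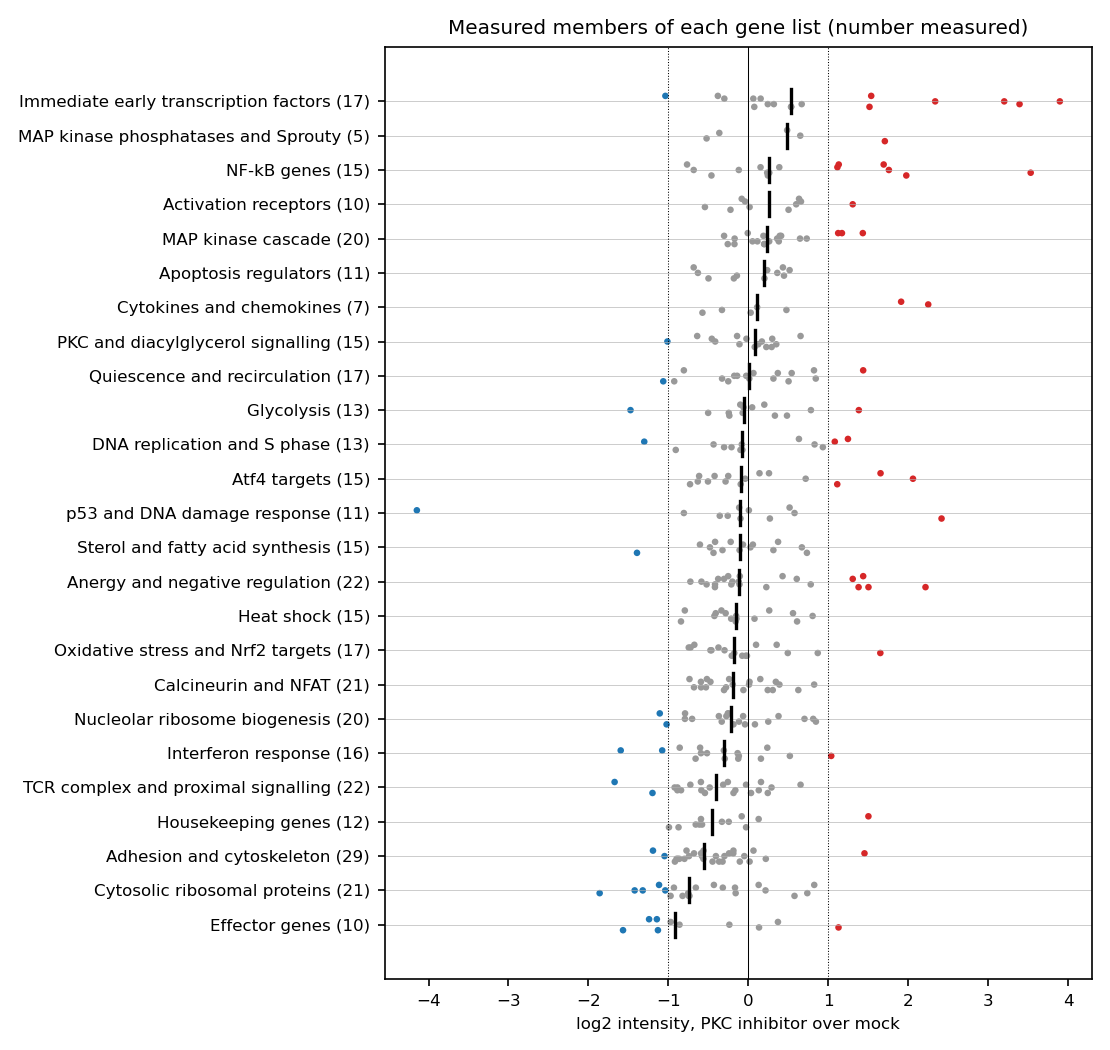
Log2 ratio of PKC inhibitor to mock for each measured member (points; red 2-fold or more higher, blue 2-fold or more lower) and the median (bar) of each gene list with 5 or more measured members, ordered by the median. Immediate early and NF-kB genes have the most red points (6 each), and ribosomal protein and effector genes the lowest medians (-0.74 and -0.92).

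What the inhibited arm showed beyond anti-TCR alone was read first from its 391 higher genes. Of these, 164 (41.9%) were at least 2-fold above mock with anti-TCR alone, 215 (55%) did not pass the limit with anti-TCR alone, and 12 were at least 2-fold below mock. Of the 215, 118 were also at least 2-fold above anti-TCR alone. On the lower side, 81 of 201 genes (40.3%) were lower with anti-TCR alone too, and 115 (57.2%) did not pass the limit there, 65 of them at least 2-fold below anti-TCR alone. Of the 215 higher genes, 30 had a reading on another chip type, where 21 lay above 0. Of the 30, 10 (33.3%) were again at least 2-fold higher, against 11% of all 885 genes with such a reading. The 10 include Lrrc8d, Rhoq, Rora, Slc38a2 and Smox, which reached the brightness minimum there only with PKC inhibitor, so this share does not check the calls. Of the 115 lower genes, 11 had one, where 7 lay above 0 (median log2 ratio 0.42) and 0 were at least 2-fold lower again, so their direction was not repeated.

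Genes that set the PKC inhibitor apart from all 4 other arms were fewer. Of 6337 genes bright in any arm, 28 (0.442%) were called at least 2-fold above and 23 (0.363%) at least 2-fold below each of the other arms. A call above needed the arm itself at 4 times the floor, and a call below needed all 4 other arms there. The 2 sides are therefore filtered differently, and the shares are of all 6337 genes. For mock the counts were 37 (0.584%) and 110 (1.74%), and for anti-TCR alone 89 (1.4%) and 64 (1.01%). For cyclosporin A they were 32 (0.505%) and 12 (0.189%), and for the 3-drug mix 10 (0.158%) and 7 (0.11%). Of the 28, 5 were read on suffixed probe sets, and of the 23, 10.

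Vps37b, a subunit of the ESCRT-I sorting complex, lay below the floor in every other arm (7.9 with mock, 7 with anti-TCR alone, 16.8 with cyclosporin A, 47.6 with the 3-drug mix) and read 268.2 with PKC inhibitor. Nr3c1, which encodes the glucocorticoid receptor, read 438.8 with mock, 410.6 with anti-TCR alone, 486.3 with cyclosporin A, 1632 with PKC inhibitor and 551.7 with the 3-drug mix. Of its 2 further bright probe sets, 1 gave 441.9 with mock and 1150 with PKC inhibitor and the other 357.4 and 463.5. The PKC inhibitor value was the highest of the 5 on each of these 3 probe sets. Crbn, the substrate receptor of a ubiquitin ligase that binds thalidomide, read 339.7 with mock and 1257 with PKC inhibitor (3.70-fold), with 306.8 to 387.6 in the other arms and 0.93 on a further probe set. Lrrc8d, a subunit of the volume-regulated anion channel, read 859.5 with mock, 730.9 with anti-TCR alone, 1221 with cyclosporin A, 4626 with PKC inhibitor and 1652 with the 3-drug mix (f-suffixed). An unsuffixed probe set on chip type B gave 186.1 with mock and 973.5 with PKC inhibitor. The uncharacterised D16Ertd472e was high on 4 probe sets (log2 ratios of 0.92 to 1.77). Gramd3 (f-suffixed), a protein of membrane contact sites, ranged from 0.47 to 2.21 on its further bright probe sets. Rundc3b was 5.01-fold, 4930405O22Rik at least 4.42-fold, C730049O14Rik 3.27-fold and Gpatch3 3.01-fold above mock.

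On the lower side, Tpt1, Pigo, Zfp707 and Amhr2 (r-suffixed) were among the 10 furthest apart. Hmgcs1, the synthase that precedes the rate-limiting step of sterol synthesis, read 335 with mock, 513.8 with anti-TCR alone, 1198 with cyclosporin A, 127.5 with PKC inhibitor and 341.4 with the 3-drug mix. Its PKC inhibitor value was 2.63-fold below mock, where the cyclosporin A value was the highest of the 5. Plek2, a pleckstrin family member, read 424.3 with mock and 117.1 with PKC inhibitor, with 383.3 to 753.6 in the other arms. Nrm, a protein of the inner nuclear membrane (i-suffixed), was 2.54-fold below mock, the brain proteoglycan gene Ncan (f-suffixed) 2.48-fold, and Tmem158, a Ras-induced membrane protein, 2.43-fold. Bsn (f-suffixed) was 2.71-fold lower, with 0.11 on a further probe set.

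**Figure D5:**
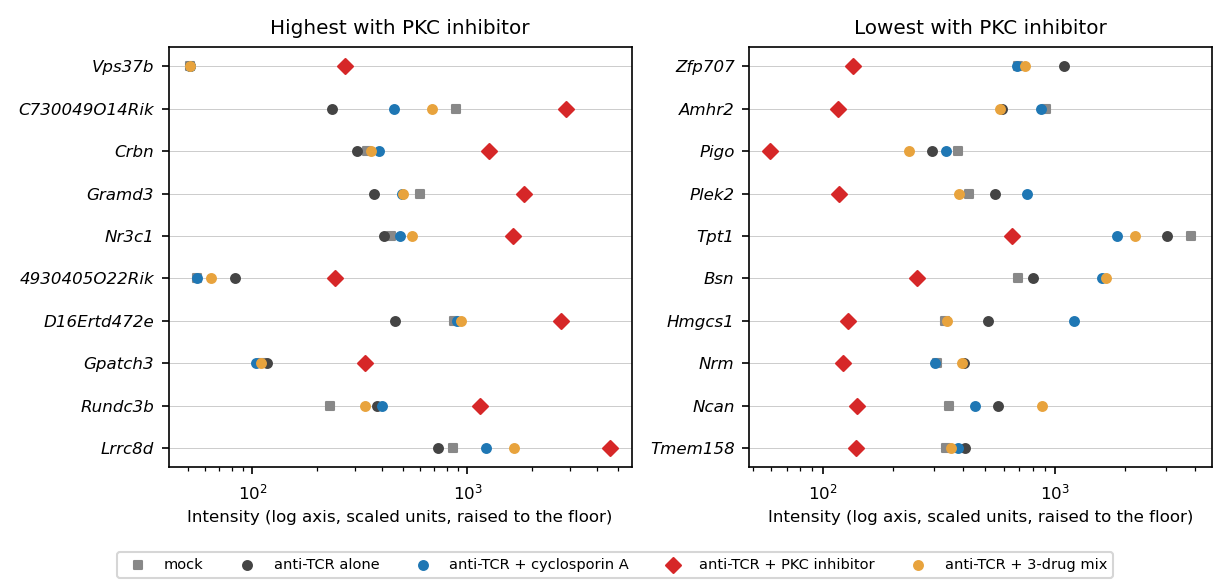
Intensity in the 5 arms (log axis, deposited scaled units, raised to the floor) of the 10 genes furthest above and the 10 furthest below all other arms with PKC inhibitor. The red diamond stands to the right of the other 4 points on the left panel, as for Nr3c1 and Vps37b, and to their left on the right panel, as for Tpt1 and Hmgcs1.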

How the data were processed

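Intensity values were used as deposited by the authors. They are linear, none lies below 0, and the arrays of a chip type share a common level. Scaling method and software: not given in the sources used here. No detection calls were used. Groups came from the array titles. Of 36701 probe sets, 29131 carry 1 gene symbol in the platform annotation, 724 several and 6846 none; the last 2 kinds stayed out of gene counts. Each gene was represented by the probe set whose mean over the 5 arms was highest. Values were raised to the chip type's median, log2 ratios were taken, and the brighter value had to reach 4 times that floor. A design suffix is carried by 8897 probe sets.

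For the technical SD, readings of 1 gene were paired across chip types, and the SD of their differences was divided by √2. No count or fold was tested, since there is 1 array per arm and chip type. Genes named are the 15 highest and 15 lowest ratios whose further bright probe sets have the same sign, the 10 largest inductions of the kept, reduced and lost classes, 5 lowered genes of the kept and lost classes, the 10 genes furthest apart on each side, the 2 highest and 2 lowest members of each list and the measured genes of the PKC and NF-kB lists. Any other gene was named with its values in view. The members and lists were chosen with earlier results of these data known. Alternatives were quantile normalization, median scaling, 0.5 and 2 times the floor, a minimum of 8 times the floor or none, averaging over a gene's probe sets, leaving out suffixed probe sets and a 3-fold limit. The steps were tested on simulated data. Python 3.11.15, pandas 2.3.3 and numpy 2.4.6 were used.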

Additional observations from a re-analysis of the deposited data

Results flagged for a closer look

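Probe sets without a single gene symbol stayed out of the comparisons above, and some of them lay far from mock in the PKC inhibitor arm. Of 1101 measured probe sets with no symbol, 49 (4.45%) were at least 2-fold higher and 63 (5.72%) lower, and of 237 with several symbols 14 (5.91%) and 13 (5.49%). Probe set 133469_at, on chip type C, read 57 with mock, 47.6 with anti-TCR alone, 775.7 with cyclosporin A, 1018 with PKC inhibitor and 181.4 with the 3-drug mix. Its log2 ratio of PKC inhibitor to mock was 4.16, above that of every named gene. Probe set 101255_at, on chip type A, read 1844 with mock, 2192 with anti-TCR alone, 612.4 with cyclosporin A, 108.9 with PKC inhibitor and 962.1 with the 3-drug mix, a log2 ratio of -4.08. Both signals lie in probe sets outside the gene counts and were singled out for that reason.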

How the results depend on the processing

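No paired analysis was possible because there is 1 array per arm and chip type, and no array can be left out for the same reason. Counts of genes higher and lower with PKC inhibitor (391 and 201) were 225 and 115 with a minimum of 8 times the floor, 249 and 97 with probe sets of a gene averaged (the mean) and 133 and 47 with a 3-fold limit. Without a minimum 384 were lower. The share of higher genes among them (66%) was 69.8% with median scaling, 59.7% with no minimum, 72.0% with the mean, 71.2% without suffixed probe sets and 73.9% at 3-fold. Induced genes kept numbered 84 with the higher minimum, 76 with the mean and 53 at 3-fold. Reduced genes numbered 26 with 2 times the floor, 26 with the mean and 8 at 3-fold. Lost genes numbered 278 at 3-fold, where they made up 81.3% of induced genes, against 69.5%, 74.4% with 2 times the floor and 75.9% with the mean. Lowered genes kept numbered 40 with the higher minimum, 131 without one, 34 with the mean and 14 at 3-fold, and lowered genes lost 414, 398 and 308 with the higher minimum, the mean and 3-fold. Genes apart above numbered 4 at 3-fold, and genes apart below 10 with the higher minimum, 43 without one, 9 with the mean, 15 without suffixed probe sets and 4 at 3-fold. Without suffixed probe sets the log2 ratio changed sign for Bsn (0.11), Gnas (0.83), Tmem186 (0.33) and Zap70 (1.71; 0.30 with the mean), and Crem, whose bright probe sets are suffixed, read 0. The mean averages dim with bright probe sets. The cause of the other shifts was not tested. The remaining 64 of 99 values for counts and shares stayed within 1.5 times or within the share's interval. Values near the floor and 2-fold differences on 1 probe set are what the signal over background limits most.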
